A study of Rattus norvegicus with 6 samples.

Results

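TREM2-type, lipid-handling macrophages take up the lipid debris that damaged tissue releases, and 10 genes used to describe them were followed in injured rat sciatic nerve. The genes were Trem2, Tyrobp, Cd36, Fabp5, Lipa, Apoe, Gpnmb, Cd9, Lgals3 and Spp1. They were picked by symbol from a count table of 29884 genes, and all 10 were found and passed the filter on low counts. All nerves came from wild-type rats with chronic constriction injury, in which ligatures are tied around the sciatic nerve. The untreated group held 3 libraries from injured nerve alone. The conduit group held 3 libraries from injured nerve treated with PLLA-PCL-RVC, a polymer conduit that the study describes as piezoelectric and loaded with ropivacaine, a local anaesthetic. Strain, age, sex and time after injury are not given in the labels, and uninjured nerve was not analysed here. The study compared these groups to look for genes tied to pain, repair by Schwann cells and inflammation.

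After nerve injury, myelin breaks down and macrophages engulf the debris. TREM2 is a surface receptor that binds lipids and apolipoproteins and signals through the adaptor TYROBP. The lipid taken up is freed in lysosomes, carried by fatty acid binding proteins, stored, or passed on with apolipoprotein E. Several of the 10 genes are not restricted to macrophages. Schwann cells are known to make Cd9, Apoe and Spp1, and adipocytes and capillary endothelium are known to make Cd36.

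Library totals ran from 38401951 to 42225086 counts. The 10 most abundant genes took 6.26 to 8.82% of counts in untreated libraries and 20.4 to 23.4% in conduit libraries. Summed CPM (counts relative to a library total scaled by the trimmed mean of M-values) of 18 macrophage markers were 3634 to 4483 in untreated and 719 to 1108 in conduit libraries. No macrophage marker was at 0 in either group's mean. Summed CPM of 12 Schwann cell markers were 11601 to 26918 and 159065 to 206975. Untreated replicate 1 stood apart in skeletal muscle markers, at 11601 CPM against 4.64 to 84.6 CPM elsewhere, and conduit replicate 3 in adipocyte markers, at 2112 CPM against 252 to 1027 CPM. The labels carry 5 batch numbers and no batch holds both groups, so treatment and batch cannot be told apart. Whether libraries came from separate animals is not stated, and the spread behind every p-value below is that among libraries, which could be technical.

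Of the 10 genes, 7 were lower in conduit nerves, 2 were higher and Cd36 was not called. Gpnmb fell the most, 17.1-fold, and Cd9 rose the most, 4.70-fold. A call here means a Benjamini-Hochberg adjusted p under 0.05 in the quasi-likelihood test of edgeR over 15464 genes. In that fit 50.2% of all genes were called, 26.2% lower and 24% higher. The median log2 fold change was -1.52 for the 10 genes and -0.04 for all genes tested. With scaling by library totals alone the median of all genes moved to -0.43, and 74.1% of called genes were lower (73.5 to 74.7% with limma on FPKM), against 52.2% with trimmed means. The groups of libraries did not overlap for 8 of the 10 genes (6 lower and 2 higher), and for 61.7% of all genes (32.2% lower and 29.5% higher). In bulk tissue, fewer cells of a type and less RNA per cell cannot be told apart.

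**Figure D1:**
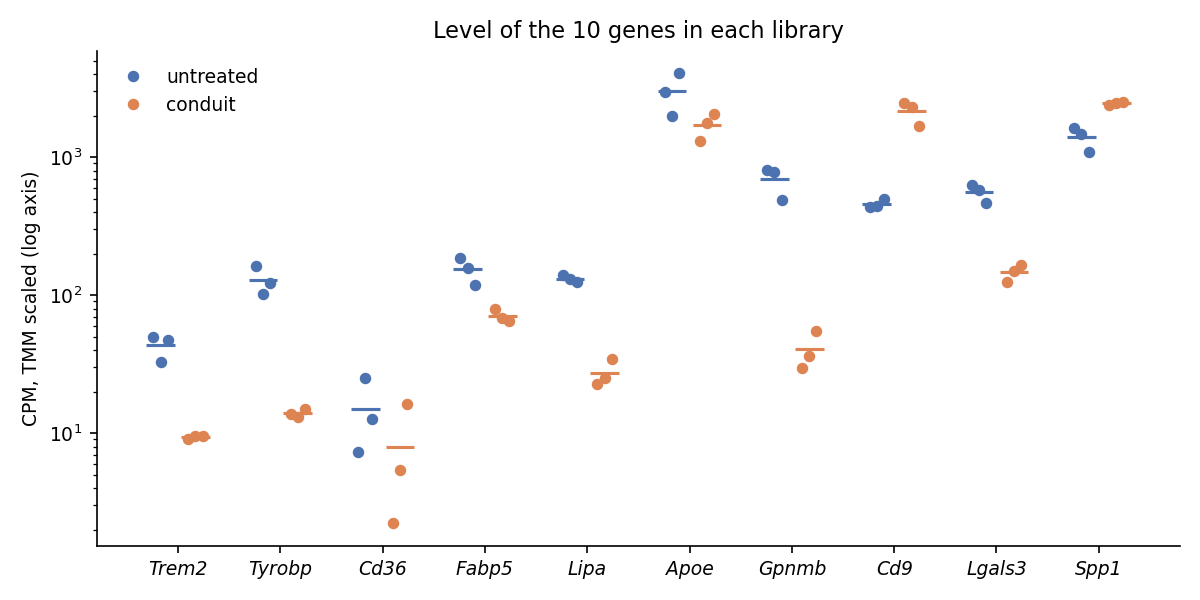
CPM (log axis) of the 10 genes in each of 3 untreated (blue) and 3 conduit (orange) libraries, with lines at the group means. Gpnmb sits at 492 to 806 CPM in untreated and 29.9 to 55.3 CPM in conduit libraries, Cd9 and Spp1 are higher in every conduit library, and the groups overlap for Apoe and Cd36.

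The receptor and its adaptor both fell. Trem2, the lipid-sensing receptor, was at 49.9, 32.9 and 47.5 CPM in untreated replicates 1, 2 and 3, and at 9.07, 9.50 and 9.53 CPM in the conduit replicates. Every conduit library lay below every untreated library, and the conduit values were close together. The log2 fold change was -2.21 ± 0.18 (SE, n = 3 and 3; edgeR adjusted p = 0.000136).

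Tyrobp, the adaptor with the activating signalling motif, was at 162, 101 and 123 CPM in untreated and 13.8, 13.2 and 15.1 CPM in conduit libraries. The groups were again apart, by a log2 fold change of -3.20 ± 0.20 (edgeR adjusted p = 7.82e-05). Per length, in FPKM (fragments per kilobase of gene, scaled to the library total), Tyrobp stood at 5.08 to 6.39 times the level of Trem2 in untreated libraries and at 2.73 to 3.11 times in conduit libraries. TYROBP serves many other myeloid receptors besides TREM2.

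Of the genes of lipid uptake, transport and lysosomal release, Lipa, Fabp5 and Apoe fell, and Cd36 was not called. Lipa, lysosomal acid lipase, which frees cholesterol and fatty acids from engulfed lipid, was at 140, 131 and 124 CPM in untreated and 22.8, 25.1 and 34.4 CPM in conduit libraries. Its groups did not overlap, and its log2 fold change was -2.26 ± 0.18 (edgeR adjusted p = 0.000125). Fabp5, a fatty acid binding protein of the cytosol, was at 185, 157 and 119 CPM in untreated and 79.5, 68.5 and 65.2 CPM in conduit libraries. Its groups did not overlap either, and it fell by 1.11 on the log2 scale (SE 0.18, edgeR adjusted p = 0.00222).

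Apoe, the lipid carrier that hands lipid from one cell to another, was at 2943, 1998 and 4055 CPM in untreated and 1318, 1761 and 2052 CPM in conduit libraries. The highest conduit library lay above the lowest untreated one, so the groups overlapped. The log2 fold change of Apoe was -0.81 ± 0.29, just past the threshold (edgeR adjusted p = 0.0486). Dropping untreated replicate 1 or 3, or any conduit replicate, removed the call, with adjusted p of 0.0907, 0.143, 0.144, 0.112 and 0.0613 in that order. Without untreated replicate 3 the log2 fold change of Apoe was -0.53.

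Cd36, a scavenger receptor for oxidised lipoproteins and long-chain fatty acids, was the least abundant of the 10 and did not pass. It was at 7.25, 25.3 and 12.7 CPM in untreated and 2.23, 5.40 and 16.3 CPM in conduit libraries, so that both groups spread widely and overlapped. The log2 fold change was -0.92 ± 0.72 (edgeR adjusted p = 0.321). Conduit replicate 3, the highest for Cd36 within its group, was also the highest in adipocyte markers, with 2112 CPM against 435 and 562 CPM in the other conduit libraries. Without it Cd36 was at -1.95 (adjusted p = 0.0461), and without that library and untreated replicate 1 together at -2.30 (adjusted p = 0.0184). Without untreated replicate 2, the highest untreated library for Cd36, it was at -0.32 (adjusted p = 0.75). Summed capillary endothelial markers ran from 966 to 1123 CPM in untreated and 766 to 902 CPM in conduit libraries. The part of adipocytes and endothelium in the Cd36 values was not tested.

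**Figure D2:**
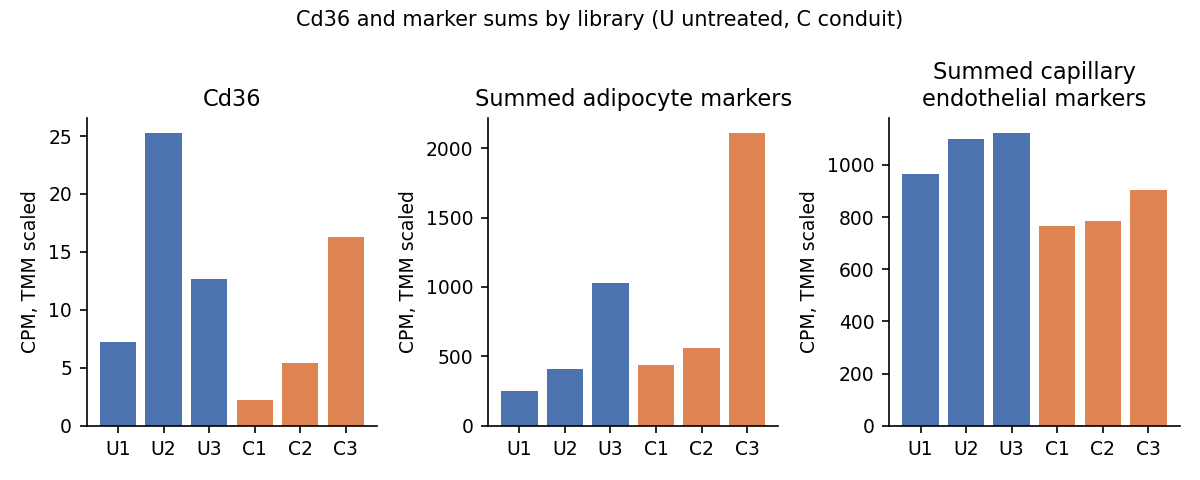
CPM of Cd36 (left), summed adipocyte markers (middle) and summed capillary endothelial markers (right) in each library, U for untreated and C for conduit, on linear axes from 0. Conduit replicate 3 is the highest conduit library for Cd36 (16.3 CPM) and the highest of all for adipocyte markers (2112 CPM), while untreated replicate 2 is the highest for Cd36 (25.3 CPM) at 410 CPM of adipocyte markers.

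Of the surface and secreted products, Gpnmb and Lgals3 fell, whereas Cd9 and Spp1 rose. Gpnmb, a transmembrane glycoprotein of lysosome-rich phagocytes, was at 806, 783 and 492 CPM in untreated and 29.9, 36.2 and 55.3 CPM in conduit libraries. The lowest untreated library was far above the highest conduit one, and the log2 fold change was -4.10 ± 0.32 (edgeR adjusted p = 0.000124). A fall of at least 4-fold with a call was found for 7.46% of all genes tested, and among the 10 genes for Trem2, Tyrobp, Lipa and Gpnmb.

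Because Gpnmb fell the most, the 100 bases upstream of its start are shown, from RefSeq in build GRCr8 (plus strand, chr4:79341028-79341127), which is not the mRatBN7.2 build named for the counts. Capitals mark an AP-1 type match and a variant of the M-box, the motif of the MiT/TFE factors that control lysosomal genes.
Gpnmb: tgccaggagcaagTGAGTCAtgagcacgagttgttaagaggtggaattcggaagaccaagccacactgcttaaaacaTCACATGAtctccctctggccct
The AP-1 letters TGANTCA were 87 to 81 bases and the M-box variant TCACATGA 23 to 16 bases upstream of the start. Searched on both strands in windows of 300 bases, TGANTCA was found in 7.33% of 33469 RefSeq windows and TCACATGA in 1.16%. RefSeq windows were at hand for 7 of the 10 genes (Trem2, Gpnmb, Spp1, Cd9, Apoe, Lipa and Cd36). TGANTCA was found in those of Gpnmb and Trem2, the latter across the start itself, and TCACATGA in that of Gpnmb alone. The E-box CACGTG (6.42% of windows), the longer TCACGTGA that contains it (0.777%), the PU.1 type GAGGAAGT (2.42%) and the DR1 element of nuclear receptors (0.0538%) were in none of the 7 genes' windows. These matches describe letters in a window and are not evidence of binding.

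Lgals3, galectin-3, a sugar-binding protein that activated macrophages release, was at 634, 574 and 462 CPM in untreated and 125, 149 and 164 CPM in conduit libraries. Its groups were apart, with a log2 fold change of -1.93 ± 0.18 (edgeR adjusted p = 0.000195).

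Cd9, a tetraspanin that organises adhesion receptors in the membrane and is also a component of Schwann cell membranes, was at 437, 442 and 494 CPM in untreated libraries. In the conduit libraries it was at 2456, 2309 and 1694 CPM, all far above the untreated range. The log2 fold change of Cd9 was 2.23 ± 0.19 (edgeR adjusted p = 0.000141). The 12 Schwann cell markers had a median log2 fold change of 2.57, and 11 of them rose, beside 24% higher among all genes. Relative to the summed FPKM of these markers, Cd9 stood at 4.17, 7.55 and 3.51% in untreated and 2.37, 2.12 and 2.06% in conduit libraries, a log2 difference of -1.14. All conduit ratios were thus below all untreated ones. The part of Schwann cells in the Cd9 values was not tested further.

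Spp1, osteopontin, a secreted phosphoprotein that binds integrins and CD44, was at 1618, 1460 and 1086 CPM in untreated and 2391, 2451 and 2509 CPM in conduit libraries. All conduit libraries were above all untreated ones, by a log2 fold change of 0.82 ± 0.18 (edgeR adjusted p = 0.0076). With scaling by library totals alone Spp1 was at 0.43 and was not called (adjusted p = 0.072), beside the median of -0.43 for all genes in that setting.

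**Figure D3:**
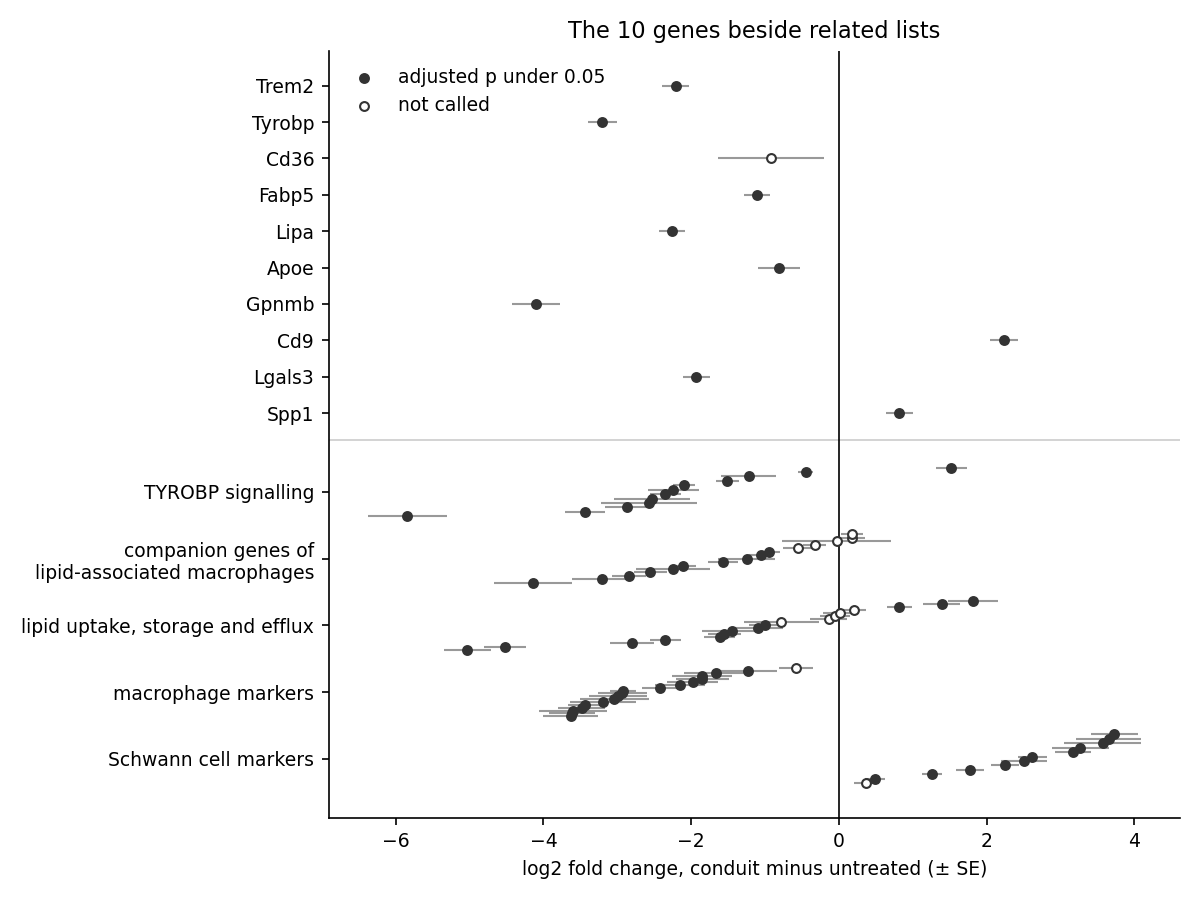
Log2 fold change (conduit minus untreated, ± SE of edgeR) of the 10 genes, above the grey line, and of the members of 5 related lists, below it, with filled points for adjusted p under 0.05. Cd9 (2.23) and Spp1 (0.82) lie right of 0 among the 10 genes, the macrophage markers lie left of 0 (median -2.93) and the Schwann cell markers right of it (median 2.57).

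Summed over the 10 genes, CPM were 6981, 5704 and 7015 in untreated and 6447, 6828 and 6614 in conduit libraries, so the groups overlapped. Summed FPKM were 5760, 4903 and 5940 in untreated and 4305, 4442 and 4482 in conduit libraries, every conduit library being lower. FPKM are scaled to library totals, with which the median log2 fold change of all genes was -0.43, against -0.04 with trimmed means. The lower FPKM sums were not tested apart from that shift. Apoe, Spp1 and Cd9 made up 68.2 to 79.4% of the summed FPKM in untreated and 93.7 to 94.5% in conduit libraries. Apoe alone held 45.4 ± 11.1% (SD, n = 3) in untreated and 25.3 ± 5.55% in conduit libraries, and Cd9 held 8.30 ± 0.965% and 37.2 ± 6.80%. Gpnmb went from 6.33 ± 2.09% to 0.348 ± 0.119%.

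The order of FPKM levels in untreated nerve was Apoe (2548.5 ± 836 FPKM), Spp1 (1031 ± 202 FPKM), Lgals3 (553 ± 86.2 FPKM), Cd9 (457 ± 31.7 FPKM), Gpnmb (344 ± 89.0 FPKM), Fabp5 (266 ± 55.5 FPKM), Tyrobp (244 ± 51.7 FPKM), Lipa (44.8 ± 2.69 FPKM), Trem2 (41.9 ± 7.75 FPKM) and Cd36 (5.64 ± 3.63 FPKM). Ranges of libraries overlapped between Lgals3 and Cd9, between Gpnmb and Fabp5, between Fabp5 and Tyrobp and between Lipa and Trem2. In conduit nerve Cd9 came first (1639 ± 270 FPKM), followed by Spp1 (1393 ± 70.4 FPKM) and Apoe (1121 ± 266 FPKM), and each overlapped the next. Lgals3 (111 ± 17.5 FPKM), Fabp5 (93.9 ± 9.03 FPKM), Tyrobp (20.5 ± 2.03 FPKM), Gpnmb (15.4 ± 5.52 FPKM), Lipa (7.18 ± 1.83 FPKM), Trem2 (6.94 ± 0.327 FPKM) and Cd36 (2.29 ± 2.18 FPKM) followed. There the neighbours that overlapped were Lgals3 and Fabp5, Tyrobp and Gpnmb, and Lipa and Trem2. Gpnmb took place 5 in untreated and place 7 in conduit nerve.

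**Figure D4:**
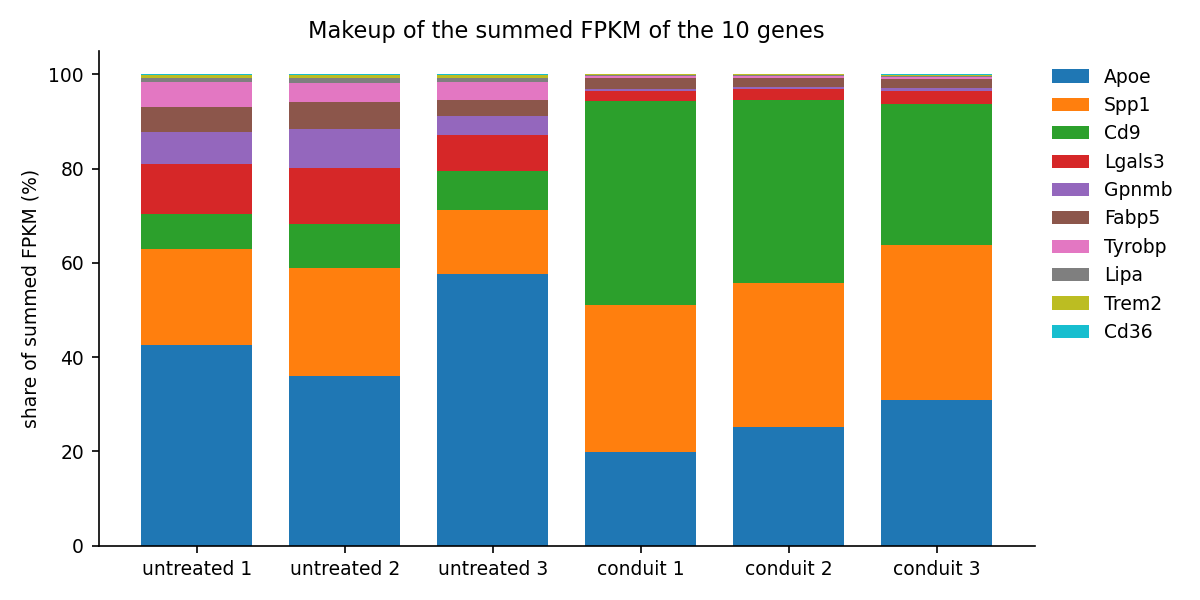
Share of the summed FPKM of the 10 genes that each gene held in each library, in percent, as stacked bars from 0. Apoe, Spp1 and Cd9 at the bottom of each bar hold 68.2 to 79.4% in untreated and 93.7 to 94.5% in conduit libraries, with the green Cd9 segment wider in all conduit bars.

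Set beside macrophage markers of the same library, the 10 genes separated. Each gene's FPKM was divided by the summed FPKM of the 18 macrophage markers, and the log2 ratios were compared by exact two-sided permutation tests, for which p = 0.1 is the smallest that 3 against 3 libraries allow. Trem2 stood at 1.52, 1.43 and 1.51% of the marker sum in untreated and 1.69, 1.40 and 1.15% in conduit libraries. The groups overlapped, with a log2 difference of -0.09 (exact permutation p = 0.7). Lipa and Lgals3 overlapped as well, with log2 differences of -0.18 and 0.17 (exact permutation p = 0.4 and 0.6). The sign or size of these 3 differences depended on the choice of markers or on single libraries: against Csf1r, Cd68 and Ptprc alone Trem2 was at 0.70, Lipa at 0.61 and Lgals3 at 0.96, without conduit replicate 3 Trem2 was at 0.05, and without untreated replicate 3 Lgals3 was at -0.02.

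Gpnmb and Tyrobp lay lower relative to the marker sum in all conduit libraries. Gpnmb was at 12.6, 17.3 and 8.02% of it in untreated and 2.85, 2.73 and 3.41% in conduit libraries, without overlap, a log2 difference of -2.01. Tyrobp was at 9.72, 8.64 and 7.69% in untreated and 5.06, 3.84 and 3.57% in conduit libraries, a log2 difference of -1.07. Against Csf1r, Cd68 and Ptprc alone the difference of Tyrobp was -0.28, and its groups overlapped. Lyz2 was the largest part of the marker sum, with mean FPKM of 1277 in untreated and 184 in conduit libraries. On the other side, Fabp5 (log2 difference 1.00), Apoe (1.33), Spp1 (2.94) and Cd9 (4.32) stood higher relative to the markers in conduit libraries, all without overlap. The marker sum itself was 3098, 2312 and 3011 FPKM in untreated and 394, 488 and 636 FPKM in conduit libraries. A gene of unchanged FPKM would thus also rise against it, and the FPKM of Fabp5 and Apoe fell. The share of all genes that rose against the marker sum was not computed. Against Csf1r, Cd68 and Ptprc alone the log2 differences were -1.22 for Gpnmb, 1.79 for Fabp5, 2.12 for Apoe and 1.70 for Cd36. Apoe was at 79.1, 76.4 and 114% of the marker sum in untreated and 217, 230 and 218% in conduit libraries. For these 6 genes the exact permutation p was 0.1, or 0.167 adjusted over the 10 ratios, so none could pass. Cd36 overlapped, at a log2 difference of 0.91 (exact permutation p = 0.4). That difference was 0.32 with conduit replicate 3 left out, 0.38 with untreated replicate 1 left out and 1.53 with untreated replicate 2 left out.

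**Figure D5:**
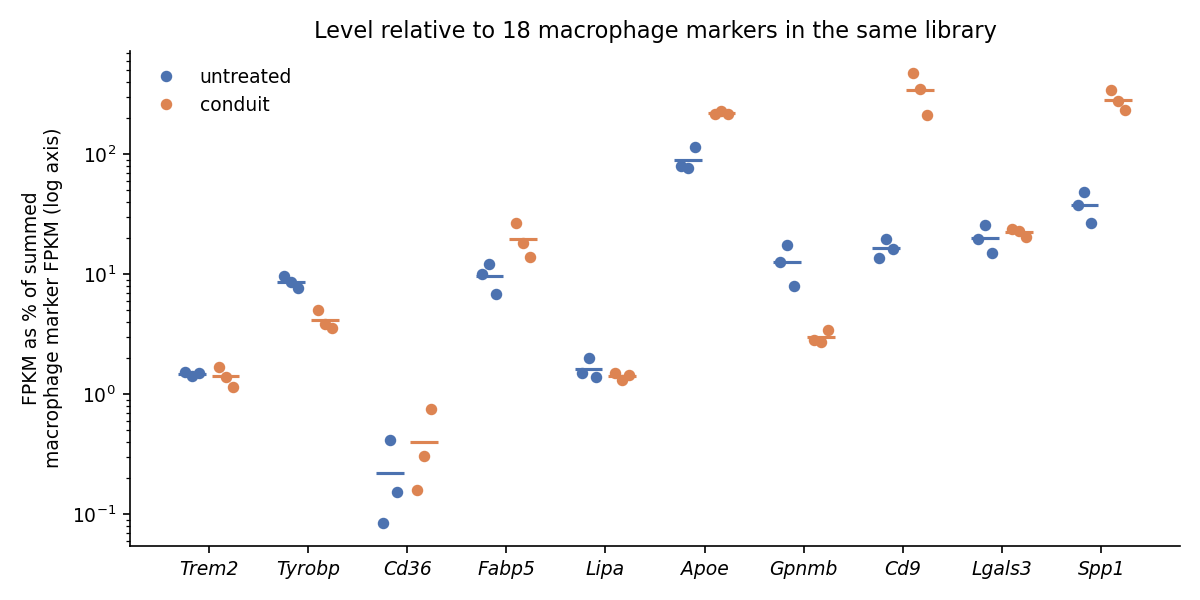
FPKM of each gene as a percentage of the summed FPKM of 18 macrophage markers in the same library (log axis), with lines at the means of 3 untreated (blue) and 3 conduit (orange) libraries. Trem2, Lipa and Lgals3 overlap between groups, Tyrobp and Gpnmb lie lower in conduit libraries, and Fabp5, Apoe, Spp1 and Cd9 lie higher.

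The 5 genes outside the 10 whose pattern over the 6 libraries was most like that of Trem2 were Ptpn18, Cyba, Arhgap45, Il17ra and Insl3. Likeness was the root mean square difference of log2 CPM after each gene was centred on its mean, and it ran from 0.081 for Ptpn18 to 0.124 for Insl3. Insl3 was near the floor, at means of 0.445 CPM in untreated and 0.0546 CPM in conduit libraries, so its pattern rests on few reads. Cyba encodes a subunit of the phagocyte NADPH oxidase. Among the 10 genes Lipa (0.255) and Lgals3 (0.292) were nearest to Trem2, and Tyrobp (0.506) was farther. In likeness to Trem2 among all genes tested, Lipa ranked 95, Lgals3 145 and Tyrobp 854, so many other genes were nearer. Spp1 (1.54) and Cd9 (2.22) were the farthest.

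Around TREM2 and TYROBP, 11 of 12 signalling genes fell, with a median log2 fold change of -2.29, beside 26.2% lower among all genes. With single libraries left out, 9 to 11 were called lower. Lat2 (-1.22 ± 0.37) lost its call without untreated replicate 1 or 2 (edgeR adjusted p = 0.0721 and 0.0532). The same held without conduit replicate 1 or 2 (edgeR adjusted p = 0.0856 and 0.0899). Syk, the kinase that docks on phosphorylated TYROBP, went from 60.6, 44.1 and 55.1 CPM in untreated to 5.31, 5.82 and 10.7 CPM in conduit libraries, without overlap (-2.87 ± 0.29, edgeR adjusted p = 0.000281). The 12th, Adam10, a protease that sheds TREM2 from the surface among many substrates, rose from 63.4, 112 and 85.0 CPM to 247, 250 and 252 CPM (1.52 ± 0.21, edgeR adjusted p = 0.00103). Adam17, the related sheddase, was at -0.45 ± 0.10, and was no longer called when conduit replicate 2 or 3 was dropped (adjusted p = 0.0657 and 0.0533). Adam10 and Adam17 are made by most cell types.

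Among 17 further genes of lipid uptake, storage and efflux, 9 fell and 3 rose, with a median of -1.0. Of all genes, 26.2% were lower and 24% higher. Msr1, the macrophage scavenger receptor (-4.52 ± 0.28), Plin2, the coat protein of lipid droplets (-2.35 ± 0.21), and Abca1, a cholesterol exporter (-2.80 ± 0.30), fell in all conduit libraries below all untreated ones. Pltp, phospholipid transfer protein, was at -1.44 ± 0.41, and missed the threshold after removal of untreated replicate 3 (0.0557 adjusted) or of conduit replicates 1 and 2 in turn (adjusted p = 0.0673 and 0.073). Those that rose included Lpl, lipoprotein lipase (1.82 ± 0.34), and Cyp27a1, sterol 27-hydroxylase (0.82 ± 0.17), the latter not called with library totals (0.44, adjusted p = 0.0541). Lpl was highest in conduit replicate 3, the library with the most adipocyte markers, at 568 CPM against 307 and 322 CPM in the other conduit libraries. In untreated libraries Lpl was at 69.8, 130 and 140 CPM. The part of adipocytes in the Lpl values was not tested. Npc2, a lysosomal cholesterol carrier and the most abundant of the list by FPKM, was at 0.02 ± 0.23 and was not called.

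Of 15 companion genes described with lipid-associated macrophages, 10 fell, with a median of -1.25, beside 26.2% lower among all genes. Ctsb, cathepsin B, went from 3232, 2649 and 2793 CPM in untreated to 558, 752 and 704 CPM in conduit libraries, without overlap (-2.11 ± 0.18, edgeR adjusted p = 0.000142). Lgals1, galectin-1 and a relative of Lgals3 made by many cell types, was at 0.18 ± 0.15 and was not called. Of the 18 macrophage markers themselves 17 fell, with a median of -2.93, beside the same 26.2% among all genes. The 18th, Laptm5, was at -0.58 ± 0.23 (edgeR adjusted p = 0.0664, or 0.0122 without untreated replicate 2). The most abundant by FPKM were Lyz2, lysozyme (-2.42 ± 0.25), and C1qa, a complement C1q chain (-1.85 ± 0.41).

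Of 12 transcription factors of myeloid cells and of lipid and lysosome control, 4 fell and 2 rose, a share near the 50.2% called among all genes. Those that fell included Spi1, encoding the myeloid factor PU.1 (-3.02 ± 0.22), Cebpb (-1.73 ± 0.24) and Tfec (-3.85 ± 0.25). Nr1h2, encoding the liver X receptor beta (0.55 ± 0.12), and Tfe3 (0.52 ± 0.12) rose, but were not called with library totals (adjusted p = 0.237 and 0.334). Of the MiT/TFE family, to which Tfec and Tfe3 belong, Mitf (0.16 ± 0.14) and Tfeb (0.05 ± 0.16) were not called. Nr1h3, encoding the liver X receptor alpha, was at -0.16 ± 0.19 and was not called. With library totals Nr1h3 was at -0.54 and was called (edgeR adjusted p = 0.0472).

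Of 12 receptors for osteopontin and apolipoprotein E, Cd44 (-2.34 ± 0.22) and Lrp8 (-2.12 ± 0.28) fell, and 3 rose, among them Itgb5 (0.80 ± 0.22) and Vldlr (0.91 ± 0.13), beside 50.2% called among all genes. Itgb5 missed the threshold after removal of untreated replicate 1 (0.0528 adjusted), of conduit replicates 1 and 2 in turn (adjusted p = 0.0603 and 0.0561), and with library totals (0.122). Without untreated replicate 1 there were 4 lower instead of 2, since Itgb3 (-0.91) and Itga4 (-1.11) were then called. Itgb1, the most abundant by FPKM, was at -0.16 ± 0.13 and was not called. With library totals Itgb1 was at -0.55 and was called (edgeR adjusted p = 0.0108).

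Relatives of the 10 genes went both ways, with 5 lower and 3 higher of 13 tested, beside 26.2% lower and 24% higher among all genes. Among tetraspanins, Cd81 (1.68 ± 0.17) and Cd151 (0.98 ± 0.17), which are made in many cell types, rose together with Cd9. The leukocyte tetraspanins Cd53 (-3.02 ± 0.25) and Cd37 (-2.32 ± 0.28) and the more widespread Cd82 (-1.15 ± 0.14) fell. Cd53, for example, went from 77.8, 88.3 and 68.7 CPM in untreated to 6.71, 9.41 and 12.9 CPM in conduit libraries, while Cd81 went from 311, 332 and 412 CPM to 1117, 1250 and 1022 CPM. Lgals9, galectin-9 (-1.23 ± 0.22), and Fabp3, the heart and muscle fatty acid binding protein (-2.70 ± 0.80), also fell. Dropping untreated replicate 1, which carried the muscle markers, moved Fabp3 to -1.26 (adjusted p = 0.0512). Dropping any conduit replicate also removed its call (adjusted p = 0.0713, 0.0609 and 0.0795). Pmel, the relative of Gpnmb in pigment cells, was at 0.84 ± 0.27 and at 3.00 ± 0.284 CPM in conduit nerves. Dropping any 1 library other than untreated replicate 3 removed its call, with adjusted p from 0.0628 to 0.111, as did library totals (0.183). Apod, an apolipoprotein of nerve fibroblasts and Schwann cells and the most abundant of these relatives by FPKM, was at -0.70 ± 0.31 and was not called (edgeR adjusted p = 0.0933). Apod was called by DESeq2 (-0.68, adjusted p = 0.0489) and with library totals (-1.08, edgeR adjusted p = 0.0169).

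Markers of other cells that could hold these transcripts moved as follows. Summed osteoclast and foreign body giant cell markers were 101 to 144 CPM in untreated and 133 to 175 CPM in conduit libraries. Most of that sum was Ctsk (means of 62.7 CPM in untreated and 72.5 CPM in conduit libraries), Nfatc1 (28.9 and 60.0 CPM) and Acp5 (13.6 and 25.5 CPM). The list did not move as one: Mmp9 (-6.11 ± 0.61) and Ocstamp (-5.34 ± 0.84) fell, while Nfatc1 (1.06 ± 0.19) and Acp5 (0.90 ± 0.26) rose, Acp5 without a call under library totals (adjusted p = 0.105) or when untreated replicate 1 (0.0586) or conduit replicates 1 and 2 in turn (0.0521 and 0.0665) were dropped. Of these 8 markers, Dcstamp, Calcr and Atp6v0d2 did not pass the filter on low counts, and Atp6v0d2 was at 0 CPM in the conduit group. Summed neutrophil markers were 50.3 to 103 CPM in untreated and 9.62 to 17.8 CPM in conduit libraries. Summed fibroblast markers were 7259 to 14515 CPM in untreated and 12600 to 26616 CPM in conduit libraries. Col1a1 (mean 4173 CPM in untreated and 11323 CPM in conduit libraries) and Col1a2 (2762 and 6548 CPM) made up most of that difference, and the list's median log2 fold change was 0.09. Their part in the values of the 10 genes was not tested.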

How the data were processed

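The authors deposited raw counts per gene and FPKM values per library. fastp, HISAT2, HTSeq and DESeq2 with build mRatBN7.2 were named, per the submitters' processing notes; their versions, roles and strand setting are not given in the sources used here. FPKM equalled the count over 1 gene length and the library total (relative tolerance 0.0001) for each of the 20504 genes whose FPKM exceeded 0 in 2 or more libraries. Libraries of 1 group differed by more than counting noise, so none was taken for a library deposited more than once; this does not show that they are separate animals.

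Counts were tested with edgeR 4.0.16 in R 4.3.3 (TMM, filterByExpr, quasi-likelihood F test, group alone), with p-values adjusted over all genes tested. SE is the log2 fold change over the square root of F. CPM are counts over TMM-scaled totals. The fits were also run on simulated data in which few genes changed, as many up as down. In these data 50.2% of genes were called, so that run cannot speak to the choice of scaling. Alternatives were DESeq2 1.42.0, limma 3.58.1 on log2(FPKM + 1) or log2(FPKM + 0.1), other scalings and filters, a replicate block and left-out libraries.

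The 10 genes and the lists were chosen with earlier results of these data known. From each pathway list, the 2 most abundant genes and those called against the list's main direction were eligible to be named; other list genes (such as Syk, Msr1, Plin2, Abca1, Spi1, Vldlr and Cd53) were named after their values were seen. Some list genes are counted but not reported here by name. The M-box variant was added after the promoter windows were read. Promoters came from RefSeq (GRCr8).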

Additional observations from a re-analysis of the deposited data

How the results depend on the processing

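The 10 genes kept their direction in all 180 fits over 18 alternatives, and their side of the threshold in 165. The exceptions were Apoe (9 settings), Spp1 (4, those scaled by library totals) and Cd36 (2). With library totals, 6554 genes were lower and 2291 higher. With limma on FPKM, 2044 genes were higher (pseudocount 1), 2034 (pseudocount 0.1) or 2254 (no filter, with 6263 lower). In these 4 settings 1 of the 10 genes was higher, Cd9, and 0 of the transcription factors (0 also at an unadjusted p under 0.05; 2 by DESeq2). Lower receptors for osteopontin and apolipoprotein E numbered 5 with library totals, 4 with limma on filtered FPKM at either pseudocount, 2 to 4 with single libraries left out, and 4 without untreated replicate 1 and conduit replicate 3 together, a setting chosen after seeing the data. Ratios to macrophage markers kept their sign in 74 of 80 settings. With the geometric mean of the markers Trem2 was at 0.43 and Lipa at 0.33, and with Csf1r, Cd68 and Ptprc at 0.70 and 0.61. With single libraries left out, Trem2 ran from -0.23 to 0.05 and Lgals3 from -0.02 to 0.36. Same-numbered libraries of the 2 groups deviated from their group means with correlations of 0.14, -0.03 and 0.06. Between libraries with different numbers these correlations ran from -0.15 to 0.1. Such values cannot settle whether the numbers pair libraries, so pairing is not known. With the replicate block 7514 genes were called instead of 7760, and no call among the 10 genes changed. No batch holds both groups, so there is no within-batch value.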
